A study of Homo sapiens with 24 samples.

Results

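The genes described here are DUSP1, DUSP2, DUSP5, DUSP6 and DUSP7, which encode dual-specificity phosphatases, together with SPRY1 and PHLDA1. They were taken by their symbols as genes linked to feedback on, and output of, the ERK kinase cascade, and all 7 were among the 9822 genes of the count table. The cells were MOLT4, an established human T-cell acute lymphoblastic leukaemia line, and no other line was used. They received SK-3-91, labelled a degrader of many kinases, or DMSO, for 1, 4 or 8 h, which gave 6 groups of 4 libraries: DMSO 1 h, DMSO 4 h, DMSO 8 h, SK-3-91 1 h, SK-3-91 4 h and SK-3-91 8 h. The sources used here do not give the dose of SK-3-91, and no untreated cells or inactive compound were among the 24 libraries.

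In the ERK cascade, active RAS recruits RAF kinases, RAF activates MEK, and MEK phosphorylates ERK on a threonine and a tyrosine of its activation loop. Dual-specificity phosphatases of this family remove both phosphates from MAP kinases, and several of their genes are themselves transcribed when ERK is active, which forms a negative feedback loop. Sprouty proteins such as SPRY1 restrain the cascade closer to the receptor, and in T cells ERK lies downstream of the antigen receptor. A kinase degrader joins a moiety that binds kinases to one that draws in a ubiquitin ligase, so that bound kinases are marked for the proteasome.

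The levels and responses below are RNA measurements, and the DNA just upstream of 4 of the genes is shown because their time courses differed. DUSP1 and DUSP2 took no step after 1 h that passed the edgeR test, DUSP7 fell further at each time, and PHLDA1 rose. The sequences are the 250 bases before the transcription start in RefSeq (build GRCh38.p14), read 5′ to 3′ on the strand of the gene, the minus strand in each case. Capitals mark matches, on either strand, to the cyclic AMP response element (CRE, TGACGTCA) or its core (TGACG), the AP-1 site (TGANTCA), the ETS core (CCGGAA), the TATA box (TATAAA) and the CArG box.
DUSP1, chr5:172771196-172771445: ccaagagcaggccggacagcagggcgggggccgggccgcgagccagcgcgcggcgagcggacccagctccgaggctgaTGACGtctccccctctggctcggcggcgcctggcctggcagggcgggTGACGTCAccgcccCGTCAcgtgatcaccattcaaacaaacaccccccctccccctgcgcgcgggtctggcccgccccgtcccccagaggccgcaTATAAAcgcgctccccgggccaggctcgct
DUSP2, chr2:96145441-96145690: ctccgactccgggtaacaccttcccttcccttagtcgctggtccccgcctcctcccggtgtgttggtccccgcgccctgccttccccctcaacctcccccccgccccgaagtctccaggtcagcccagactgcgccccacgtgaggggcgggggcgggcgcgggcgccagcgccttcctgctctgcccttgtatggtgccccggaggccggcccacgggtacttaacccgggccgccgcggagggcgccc
DUSP7, chr3:52056572-52056821: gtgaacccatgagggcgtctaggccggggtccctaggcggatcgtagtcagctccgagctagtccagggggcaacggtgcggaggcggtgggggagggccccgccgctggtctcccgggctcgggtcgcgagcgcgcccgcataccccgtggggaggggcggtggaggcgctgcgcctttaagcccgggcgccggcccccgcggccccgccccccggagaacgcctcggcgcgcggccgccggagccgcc
PHLDA1, chr12:76031777-76032026: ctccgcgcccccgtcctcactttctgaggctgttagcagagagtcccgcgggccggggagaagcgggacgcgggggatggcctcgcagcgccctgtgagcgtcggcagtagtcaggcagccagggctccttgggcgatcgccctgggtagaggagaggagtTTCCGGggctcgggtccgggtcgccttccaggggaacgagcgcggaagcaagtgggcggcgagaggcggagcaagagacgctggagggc
The DUSP1 window held a full CRE, which began 125 bases before the start, and 2 further CRE cores outside it, at 172 and 111 bases. It also held a TATAAA that began 30 bases before the start. A full CRE was present in 1.64% of the 34788 promoter windows of the same length in the table, the core in 21.2% and TATAAA in 10.8%. The PHLDA1 window held an ETS core at 89 bases before the start, a motif found in 14.5% of windows. The DUSP2 and DUSP7 windows held none of the capitalised motifs, and AP-1 (6.59% of windows) and the CArG box (1.17%) matched none of the 4. The letters of the Sp1 site (GGGCGG, 42.6% of windows), not capitalised, occurred in all 4. RefSeq windows were also found for DUSP6, which held none of the motifs searched, and for SPRY1, whose second listed start had an ETS core 67 bases upstream; DUSP5 was not matched. A match describes letters in a window and is not evidence of binding.

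The libraries held 6.86 to 14.6 megareads counted. The DMSO groups averaged 14.1 to 14.4 megareads, and the SK-3-91 groups averaged 13.6 megareads at 1 h, 10.8 at 4 h and 8.3 at 8 h, so depth moved with treatment; its part in the results was not tested. Of 20 T-lineage marker genes 19 were measured, with a summed level of 7123 to 8642 CPM (reads of a gene per megaread counted) in the DMSO libraries, 7754 to 7958 CPM after SK-3-91 at 1 h, 6830 to 7214 CPM at 4 h and 5451 to 6015 CPM at 8 h. None of 9 myeloid, 6 erythroid or 5 epithelial markers was among the 9822 genes. Of 8 B-lineage markers CD79A was measured, at 6.89 to 11.3 CPM in DMSO and 19.0 to 24.4 CPM after 8 h of SK-3-91, and of 8 fibroblast or endothelial markers PECAM1, at 36.1 to 47.2 CPM in DMSO and 12.7 to 16.5 CPM after 8 h of SK-3-91; the part of these shifts in the results was not tested. These marker levels are scaled by total reads alone and are not on the scale of the CPM values below. Those values are scaled by TMM factors, which take most genes to keep their share of the RNA. Fold changes are therefore relative to other genes, and in bulk RNA fewer cells of a type and less RNA per cell cannot be told apart.

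Under DMSO the 7 transcripts covered a wide range. Per kilobase of the deposited gene width and per megaread, at 1 h DUSP7 stood at 15.6 ± 0.998 (SD, n = 4), DUSP2 at 12.8 ± 0.420, SPRY1 at 8.74 ± 0.272, DUSP6 at 3.47 ± 0.151, DUSP1 at 2.65 ± 0.0469, DUSP5 at 1.27 ± 0.169 and PHLDA1 at 0.0900 ± 0.0138. No 2 neighbours in that order overlapped between libraries. DUSP7, a cytoplasmic ERK phosphatase, and DUSP2, a nuclear one best known in activated lymphocytes, were thus the most abundant per length. After 8 h of SK-3-91 the order was DUSP2 at 5.42 ± 0.804, DUSP7 at 4.19 ± 0.213, PHLDA1 at 3.17 ± 0.736, SPRY1 at 2.93 ± 0.558, DUSP6 at 1.29 ± 0.384, DUSP1 at 0.803 ± 0.308 and DUSP5 at 0.0410 ± 0.0530. PHLDA1 then overlapped both DUSP7 and SPRY1, and DUSP6 overlapped DUSP1. PHLDA1 had moved from the last place to the third while the other 6 all stood below their DMSO 1 h level. The place of DUSP6 in this order is uncertain, because 40.5% of its exon bases in GENCODE 29 lie opposite exons of AC024909.2 and the sources used here do not give the strand setting of the counting. For PHLDA1 that share was 16.5% (AC011611.3 and AC011611.4), and for the other 5 genes it was 0%. The order also rests on the deposited widths, which were 2880 bases for DUSP6, 2363 for DUSP1, 5953 for PHLDA1 and 3141 for SPRY1. The GENCODE 29 exons of these genes cover 4632, 2019, 8069 and 3963 bases, so their places could differ with another width.

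**Figure D1:**
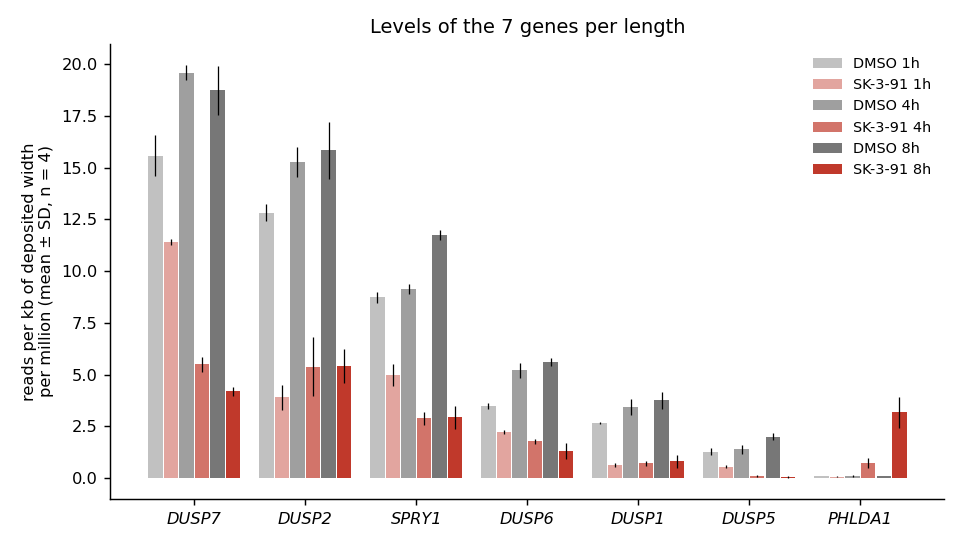
Mean level of each gene per kilobase of deposited width per megaread (vertical axis, linear from 0) in the 6 groups, with bars as mean ± SD of 4 libraries. DUSP7 leads in the DMSO groups, and PHLDA1 is visible only after SK-3-91, reaching 3.17 at 8 h.

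After 1 h of SK-3-91, 6 of the 7 genes were lower than in DMSO (edgeR quasi-likelihood test, Benjamini-Hochberg adjusted over 9822 genes) and PHLDA1 did not pass; of all genes 29.4% were called lower and 24.9% higher. The median log2 fold change of the 7 was -0.81, beside 0.01 over all genes. Because the 7 genes were chosen with earlier results of these data known, their medians here are descriptions. A rule against a minimum fold of 1.5 calls 5.83% of all genes lower and 0.0509% higher at 1 h. By this rule DUSP1, DUSP2, DUSP5 and SPRY1 passed and DUSP6 and DUSP7 did not. When 1 library was left out, 3 to 4 of the 7 genes passed at 1 h. At 4 h and again at 8 h, 6 genes were lower and PHLDA1 was higher, by the plain test and against the minimum fold alike. The plain test called 45.9% of all genes lower and 42.0% higher at 4 h, and 48.1% and 41.3% at 8 h. With the minimum fold those shares were 25.7% lower and 19.7% higher at 4 h, and 31.1% and 25.4% at 8 h. The median of the 7 was -1.66 at 4 h and -2.11 at 8 h, beside -0.05 and -0.11 over all genes. With no scaling factors 58.6% of all genes were called lower and 29.2% higher at 4 h, and 62.6% and 28.3% at 8 h, and the medians over all genes moved to -0.35 and -0.54; the calls for the 7 genes stayed as given. In the libraries themselves, the 4 SK-3-91 values lay below the 4 DMSO values for 6 genes at each time and above them for PHLDA1 at 4 and 8 h. Over all genes such separation was seen downwards in 28.2%, 43.7% and 45.1% of genes at 1, 4 and 8 h, and upwards in 22.8%, 39.6% and 38.8%.

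**Figure D2:**
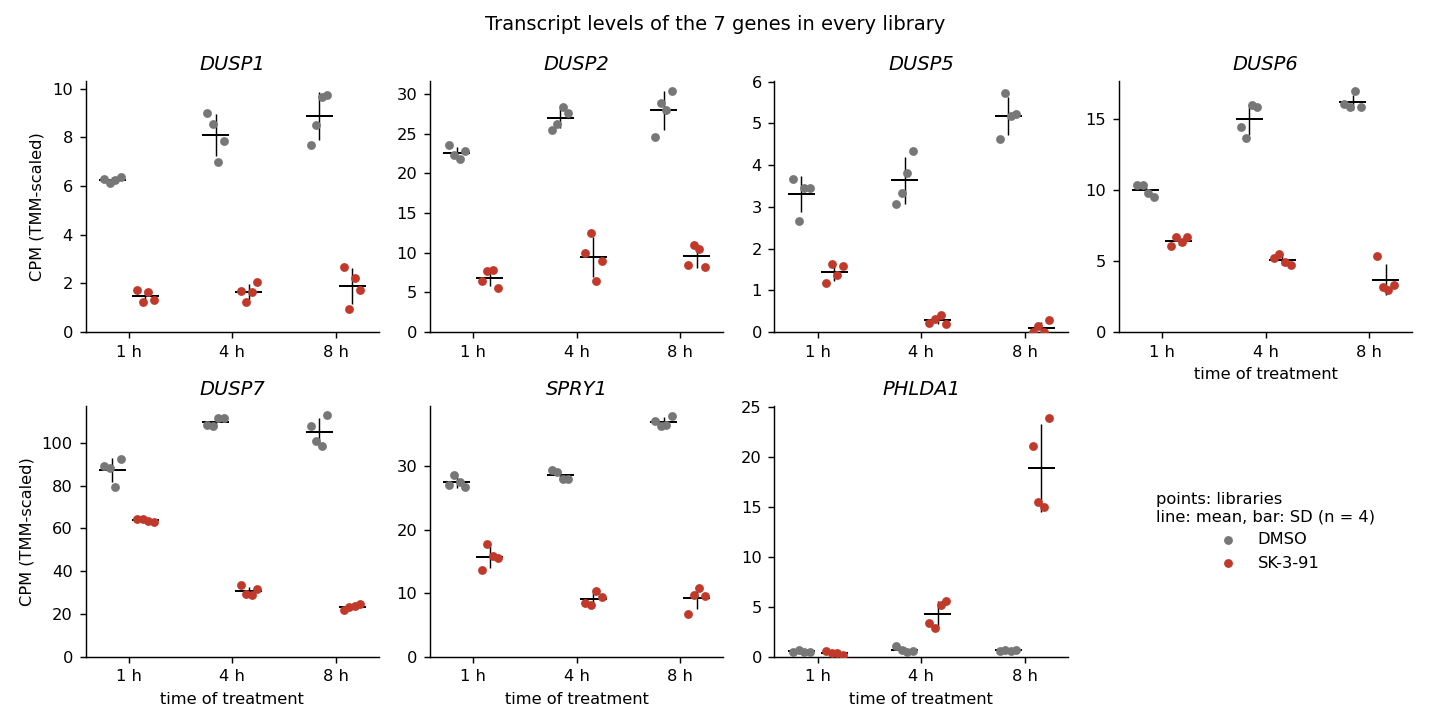
Level of each gene in CPM (TMM-scaled, linear axes from 0, a scale per panel) in every library by time of treatment; points are libraries, lines means and bars SD (n = 4), grey for DMSO and red for SK-3-91. In each panel the groups are apart at every time except PHLDA1 at 1 h, and PHLDA1 is the one gene whose SK-3-91 libraries lie above DMSO.

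DUSP1 and DUSP2 are both nuclear phosphatases encoded by immediate-early genes. DUSP1 acts on p38 and JNK as well as ERK. Its level in the DMSO libraries was 6.31, 6.11, 6.25 and 6.37 CPM at 1 h, 9.01, 8.57, 7.004 and 7.84 CPM at 4 h, and 7.70, 8.50, 9.66 and 9.73 CPM at 8 h. With SK-3-91 it was 1.73, 1.23, 1.64 and 1.31 CPM at 1 h, 1.67, 1.24, 1.67 and 2.05 CPM at 4 h, and 2.67, 0.966, 2.21 and 1.74 CPM at 8 h. Every SK-3-91 library lay below every DMSO library at the same time. DUSP1 fell at each time: its log2 fold change was -2.08 ± 0.16 at 1 h (SE, adjusted p = 3.3e-14), a 4.23-fold difference, -2.28 ± 0.17 at 4 h (adjusted p = 8.1e-16) and -2.24 ± 0.18 at 8 h (adjusted p = 1.4e-14). At 1 h only 0.0916% of all genes had a lower log2 fold change than DUSP1, and at 8 h 5.84% did.

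DUSP2 was likewise low by 1 h. Its DMSO libraries read 23.6, 22.4, 21.8 and 22.8 CPM at 1 h, 25.5, 26.3, 28.3 and 27.6 CPM at 4 h, and 24.6, 28.9, 28.0 and 30.3 CPM at 8 h. The SK-3-91 libraries read 6.50, 7.69, 7.78 and 5.57 CPM at 1 h, 9.93, 12.6, 6.46 and 9.0 CPM at 4 h, and 8.43, 11.04, 10.5 and 8.26 CPM at 8 h. The groups did not overlap at any time, and the SK-3-91 libraries spread most at 4 h. DUSP2 fell by 1.71 ± 0.11 at 1 h (adjusted p = 3.2e-17), and its log2 fold change was -1.5 ± 0.11 at 4 h (adjusted p = 2.3e-16) and -1.55 ± 0.12 at 8 h (adjusted p = 1.5e-15), which was 3.28-, 2.84- and 2.93-fold.

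DUSP5, an inducible nuclear phosphatase selective for ERK, had the lowest log2 fold changes of the 7 at 4 and 8 h. Its read counts are given as such because few remained: the DMSO libraries held 57, 41, 53 and 53 reads at 1 h, 49, 53, 61 and 68 at 4 h, and 72, 91, 76 and 81 at 8 h. The SK-3-91 libraries held 17, 24, 20 and 23 reads at 1 h, 2, 3, 4 and 2 at 4 h, and 0, 1, 0 and 2 at 8 h. The groups were apart at each time, and by 8 h 2 of the 4 SK-3-91 libraries held no read. The log2 fold change of DUSP5 was -1.20 ± 0.18 at 1 h (adjusted p = 5.5e-07) and -3.63 ± 0.29 at 4 h (adjusted p = 1.2e-14), and the adjusted p at 8 h was 9.6e-17. From summed counts scaled by library size times TMM factor, it was 2.30-fold lower at 1 h (95% counting interval 1.78 to 3.001). It was 12.8-fold lower at 4 h (11 reads against 231, interval 6.996 to 25.9) and 46.1-fold lower at 8 h (3 reads against 320, interval 15.6 to 225). These intervals cover counting error only.

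DUSP6 and DUSP7 are cytoplasmic phosphatases selective for ERK, and DUSP6 is widely used as a readout of ERK activity. DUSP6 in DMSO was 10.4, 10.3, 9.77 and 9.49 CPM at 1 h, 14.5, 13.7, 15.95 and 15.8 CPM at 4 h, and 16.0, 15.8, 16.9 and 15.9 CPM at 8 h. With SK-3-91 it was 6.09, 6.67, 6.34 and 6.67 CPM at 1 h, 5.23, 5.50, 4.90 and 4.70 CPM at 4 h, and 5.34, 3.17, 2.95 and 3.33 CPM at 8 h. The groups did not overlap, and at 8 h replicate 1 stood above the other SK-3-91 libraries. DUSP6 had log2 fold changes of -0.63 ± 0.10 at 1 h (adjusted p = 6.7e-07), -1.56 ± 0.11 at 4 h (adjusted p = 4.1e-17) and -2.11 ± 0.13 at 8 h (adjusted p = 4.9e-19). All values of DUSP6 carry the doubt about reads of the gene on the opposite strand.

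DUSP7, with the highest counts of the 7, was measured most precisely. It read 89.0, 88.1, 79.4 and 92.5 CPM in DMSO at 1 h, 108.1, 107.7, 111.6 and 111.5 CPM at 4 h, and 107.8, 100.9, 98.3 and 112.8 CPM at 8 h. After SK-3-91 it read 64.3, 64.6, 63.5 and 63.0 CPM at 1 h, 33.3, 29.3, 29.1 and 31.5 CPM at 4 h, and 21.9, 23.3, 23.8 and 24.8 CPM at 8 h. The groups were apart at each time, and the SK-3-91 libraries of 1 time lay above all those of the next. On the log2 scale DUSP7 changed by -0.45 ± 0.05 at 1 h (adjusted p = 2.2e-10), -1.83 ± 0.06 at 4 h (adjusted p = 1.7e-28) and -2.16 ± 0.06 at 8 h (adjusted p = 1.8e-29). In folds this was 1.37, 3.56 and 4.48.

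SPRY1 encodes a Sprouty adaptor that limits RAS and ERK signalling from receptors. In DMSO it was 27.0, 28.6, 27.5 and 26.7 CPM at 1 h, 29.4, 29.1, 28.0 and 28.0 CPM at 4 h, and 37.1, 36.3, 36.5 and 37.95 CPM at 8 h. With SK-3-91 it was 13.7, 17.8, 15.8 and 15.5 CPM at 1 h, 8.47, 8.09, 10.3 and 9.41 CPM at 4 h, and 6.75, 9.66, 10.9 and 9.57 CPM at 8 h. The groups did not overlap, while the SK-3-91 libraries of 4 and 8 h overlapped each other. The log2 fold change of SPRY1 was -0.81 ± 0.07 at 1 h (adjusted p = 1.9e-12), -1.66 ± 0.09 at 4 h (adjusted p = 1.3e-20) and -2.02 ± 0.09 at 8 h (adjusted p = 1.2e-22).

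PHLDA1, which encodes a pleckstrin homology-like domain protein, went the other way. Under DMSO it was near the lower end of detection, with 8, 10, 7 and 8 reads at 1 h, 17, 10, 7 and 9 at 4 h, and 9, 11, 8 and 11 at 8 h. The SK-3-91 libraries held 8, 5, 5 and 3 reads at 1 h, 32, 28, 50 and 55 at 4 h, and 150, 112, 81 and 165 at 8 h. The groups overlapped at 1 h and were apart, with SK-3-91 above, at 4 and 8 h. At 1 h the log2 fold change was -0.56 ± 0.47 (adjusted p = 0.32), and the ratio of summed counts, 0.672, had a 95% counting interval of 0.370 to 1.197, so neither a fall nor no change could be shown at this depth. PHLDA1 rose by 2.64 ± 0.27 at 4 h (adjusted p = 7.1e-12), 6.24-fold, and by 4.89 ± 0.21 at 8 h (adjusted p = 5e-24), 29.6-fold. In level this was 18.9 ± 4.38 CPM against 0.631 ± 0.0822 CPM (SD, n = 4) at 8 h. The filter on low counts removed PHLDA1 from a fit of the 1 h libraries alone. A high level after SK-3-91 was thus a condition of its passing that filter. With no filter its log2 fold changes were also 2.64 and 4.89 at 4 and 8 h.

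The response was not equally timed across the genes. The difference between times was tested as the change in the log2 fold change. For each pair of times the log2 fold change went further down for 4 genes (DUSP5, DUSP6, DUSP7 and SPRY1) and up for PHLDA1, and DUSP1 and DUSP2 did not pass. Over all genes 39.9% went down and 40.6% up from 1 to 4 h, 33.0% and 35.6% from 4 to 8 h, and 44.0% and 41.4% from 1 to 8 h. From 1 to 4 h the log2 response changed by -2.43 ± 0.40 for DUSP5, -1.38 ± 0.07 for DUSP7, -0.92 ± 0.15 for DUSP6 and -0.85 ± 0.12 for SPRY1, and by 3.20 ± 0.55 for PHLDA1. It changed by -0.20 ± 0.27 for DUSP1 (adjusted p = 0.49) and 0.21 ± 0.16 for DUSP2 (adjusted p = 0.22). Limma on the deposited log2 values called DUSP1 (-0.15, adjusted p = 0.017), and DUSP2 was called without SK-3-91 4 h replicate 3 (0.35, adjusted p = 0.029). From 4 to 8 h the steps were smaller, at -0.55 ± 0.18 for DUSP6 (adjusted p = 0.0075), -0.33 ± 0.09 for DUSP7 (adjusted p = 0.0013), -0.36 ± 0.14 for SPRY1 (adjusted p = 0.021) and 2.25 ± 0.43 for PHLDA1. The step of DUSP5 from 4 to 8 h, -1.78 ± 0.80 (adjusted p = 0.046), rested on 11 and 3 reads, and its call was lost with DESeq2 (-1.81, adjusted p = 0.084), with RLE scaling (-1.74, adjusted p = 0.052), in a fit of those times alone (-1.81, adjusted p = 0.052) and in 10 of the 16 fits that left out 1 library. The step of SPRY1 was lost without SK-3-91 4 h replicate 3 (-0.29, adjusted p = 0.073) or SK-3-91 8 h replicate 1 (-0.23, adjusted p = 0.13). For DUSP1 and DUSP2 the change from 4 to 8 h was 0.04 ± 0.29 (adjusted p = 0.9) and -0.05 ± 0.17 (adjusted p = 0.82), values whose errors leave room for a change of the size seen in SPRY1.

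**Figure D3:**
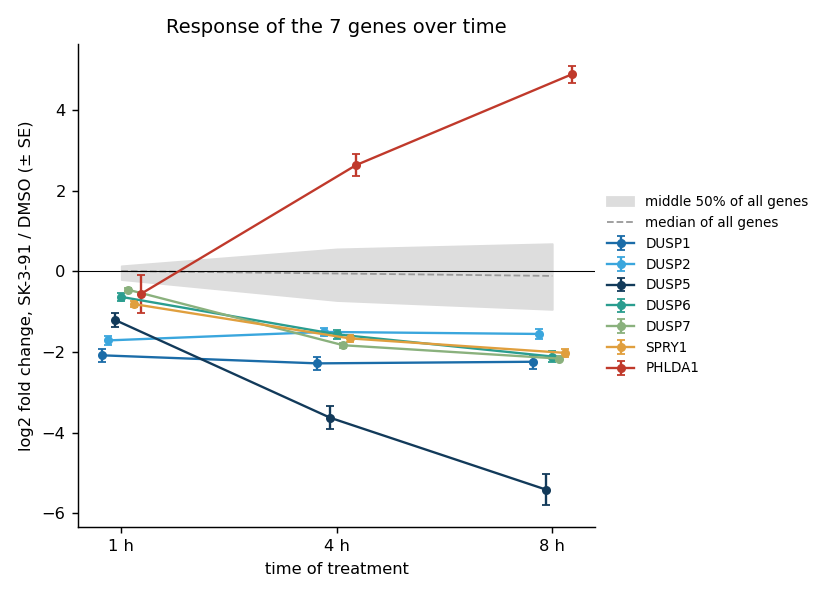
Log2 fold change of SK-3-91 over DMSO (vertical axis, ± SE from the edgeR test) against time for the 7 genes, with the middle 50% of all 9822 genes in grey and their median dashed. DUSP1 goes from -2.08 at 1 h to -2.24 at 8 h and DUSP2 from -1.71 to -1.55, DUSP6, DUSP7 and SPRY1 go down together to about -2, and PHLDA1 rises to 4.89; the DUSP5 point at 8 h is a fitted value that rests on 3 reads.

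Some of this change in response came with movement in the solvent groups. From 1 to 4 h in DMSO alone, 4 genes rose: DUSP6 by 0.58 ± 0.08 (adjusted p = 4.2e-07), DUSP1 by 0.37 ± 0.11 (adjusted p = 0.0082), DUSP7 by 0.33 ± 0.05 (adjusted p = 3.5e-07) and DUSP2 by 0.25 ± 0.08 (adjusted p = 0.017). Of all genes 16.0% rose and 19.1% fell in that comparison. The call for DUSP2 was lost without DMSO 4 h replicate 3 (0.23, adjusted p = 0.058). From 4 to 8 h in DMSO, DUSP5 rose by 0.51 ± 0.13 (adjusted p = 0.0029) and SPRY1 by 0.37 ± 0.06 (adjusted p = 2.2e-05), where 15.9% of all genes rose and 14.8% fell. By this test 0 of the 7 fell in either DMSO comparison (0 also at an unadjusted p under 0.05), and 0 did by DESeq2 or limma. For SPRY1 the mean SK-3-91 level was 9.07 ± 1.00 CPM at 4 h and 9.21 ± 1.75 CPM at 8 h, while the DMSO mean went from 28.6 ± 0.753 to 37.0 ± 0.761 CPM (SD, n = 4).

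Ratios within a library do not depend on the scaling factors, so each gene was also set against DUSP6 as the log2 ratio of counts plus 0.5. With 4 libraries against 4 the exact two-sided permutation test cannot give a p below 0.0286, and after adjustment over the 18 ratios the smallest value was 0.0643, so 0 passed. In 8 of the 18 the groups did not overlap, and each of these had an unadjusted exact permutation p of 0.0286. Because DUSP6 itself fell, most genes separated upwards from it: 83.7%, 85.4% and 84.5% of the 9821 other genes at 1, 4 and 8 h, so the separation of PHLDA1 is shared with most genes. Downward separation was found in 4.53%, 5.67% and 2.65% of them. At 1 h the ratio of DUSP1 to DUSP6 was -0.67 ± 0.08 in DMSO and -2.12 ± 0.30 with SK-3-91, a difference of -1.44, and that of DUSP2 differed by -1.09. By 8 h the difference for DUSP1 was -0.12 and that for DUSP2 0.59, and both overlapped. The ratio of DUSP5 differed by -0.55, -1.93 and -2.99 at 1, 4 and 8 h; the 8 h value rests on 3 reads, and with counts plus 2 the differences at 4 and 8 h were -1.43 and -1.68. DUSP7 was lower at 4 h by -0.29. The ratio of PHLDA1 was higher by 4.17 at 4 h and 6.95 at 8 h, without overlap. For SPRY1 the differences of -0.18, -0.11 and 0.13 all came with overlapping groups, so its fall could not be told from that of DUSP6. The doubt about DUSP6 reads extends to each of these ratios.

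**Figure D4:**
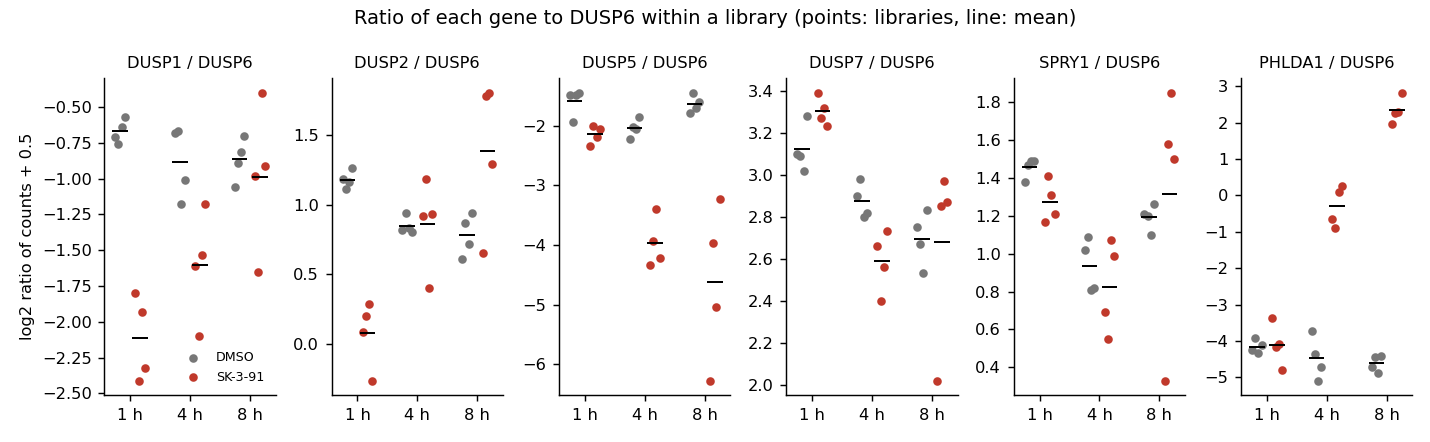
Log2 ratio of each gene to DUSP6 within a library (counts + 0.5, vertical axis with its own scale per panel) by time; points are libraries and lines means, grey for DMSO and red for SK-3-91. DUSP1 and DUSP2 lie below DMSO at 1 h and overlap it at 8 h, and PHLDA1 climbs from overlap at 1 h to a difference of 6.95 at 8 h.

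The profiles over the 6 group means were then set against each other. Likeness was measured as the root mean square difference between log2 CPM profiles, each centred on its own mean. Among the 7, DUSP6 and SPRY1 were closest (0.22), followed by DUSP7 and SPRY1 (0.23), DUSP6 and DUSP7 (0.26) and DUSP1 and DUSP2 (0.29). DUSP5 lay 0.83 to 1.17 from the other phosphatases and SPRY1, and PHLDA1 lay 2.33 to 3.45 from every other gene. The 6 points share their libraries, and these values are descriptions.

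Of 9188 genes with a mean of at least 5 CPM, the 3 nearest to DUSP1 were ZNF2 (0.16), ZNF436 (0.19) and RAB3A (0.19), and to DUSP2 they were IRF1 (0.14), an interferon-regulated transcription factor, ZNF2 (0.20) and ZNF230 (0.23). ZNF2 thus stood near both, with log2 fold changes of -2.12, -2.0 and -1.79 at 1, 4 and 8 h. Nearest to DUSP7 were SEC22A (0.07), the kinase gene DYRK3 (0.08) and TRIP11 (0.09), the tightest matches of any of the 7. DUSP6 was nearest to CSRNP2 (0.15), SNAPC1 (0.18) and OXSM (0.19), and SPRY1 to OXSM (0.10), the zinc finger factor gene KLF3 (0.11) and the Polycomb gene CBX2 (0.12). DUSP5 had no match closer than ZNF775 (0.26), followed by CMTR2 (0.29) and ITPRIPL1 (0.31). Their log2 fold changes were -3.37, -3.38 and -3.15 at 4 h and -3.65, -3.70 and -3.69 at 8 h. DUSP5 itself stood at -3.63 at 4 h and at a fitted -5.41 at 8 h, which rests on 3 reads. With so few reads the prior count damps its fall in this measure of likeness. PHLDA1 was nearest to RASL11A (0.27), a RAS-like GTPase gene, MCC (0.33) and KLF6 (0.43). RASL11A and MCC averaged under 3 CPM in every DMSO group and met the minimum of 5 CPM only through the SK-3-91 groups, so a rise was a condition of their entering the search. IRF1 and OXSM have over 20% of their exon bases opposite other genes, and ZNF775 and SNAPC1 share over 20% of their 32-base sequence words with other genes, so their counts are uncertain.

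The rest of the ERK pathway was described through 11 gene lists, of which 89 of 135 genes were measured. Of these 89, 33 were lower and 16 higher at 1 h, 44 and 35 at 4 h, and 42 and 38 at 8 h, against the background shares above. These totals use TMM scaling, and the counts of several lists differed with no scaling factors. Their median log2 fold change was -0.05, -0.15 and -0.09 at the 3 times. Of the 6 other measured phosphatases of MAP kinases, 3 were lower and 1 higher at 1 h, and 5 were lower and 0 higher at both 4 and 8 h, with medians of -0.12, -0.96 and -1.34. DUSP3, a small phosphatase of ERK and JNK, fell at all 3 times (log2 fold change -0.28 ± 0.05, -1.88 ± 0.07 and -3.10 ± 0.09), and DUSP16, which acts on JNK and p38, fell at 4 h (-1.18 ± 0.07) and 8 h (-1.87 ± 0.08) after -0.05 ± 0.06 (adjusted p = 0.51) at 1 h. DUSP19 fell at 4 h (-1.4 ± 0.24) and 8 h (-1.72 ± 0.29). DUSP10, a phosphatase of p38 and JNK, had another course: it fell by 1.04 ± 0.16 at 1 h and stood at -0.07 ± 0.17 (adjusted p = 0.68) and 0.13 ± 0.19 (adjusted p = 0.51) at 4 and 8 h. A separate list of atypical dual-specificity phosphatases, which does not hold the whole class, had 4 measured genes. Of these, 2 were lower and 2 higher at 8 h (2 and 1 with no scaling factors, where DUSP28 stood at 0.01, adjusted p = 0.92). DUSP12 was at 0.59 ± 0.08. DUSP18 was at -2.06 ± 0.28, a value in doubt because 34.4% of its exon bases lie opposite SLC35E4.

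SPRED proteins are relatives of the Sproutys, and PHLDA3 of PHLDA1. All 3 measured members of that list, SPRED1, SPRED2 and PHLDA3, were lower at 1 h, at -0.69 ± 0.07, -0.79 ± 0.04 and -0.48 ± 0.14. At 4 h SPRED1 (-0.36 ± 0.07) and PHLDA3 (-1.5 ± 0.18, adjusted p = 7.5e-10) were lower and SPRED2 was higher (0.70 ± 0.04). At 8 h SPRED2, an inhibitor of RAF activation, had risen by 0.99 ± 0.04. SPRED1 at 0.26 ± 0.07 and PHLDA3 at 0.38 ± 0.15 were also called higher at 8 h, but stood at -0.17 (adjusted p = 0.026) and -0.05 (adjusted p = 0.75) with no scaling factors. Most core genes of the cascade were higher at 8 h: of 11 measured RAS, RAF, MEK and ERK genes, 9 were higher and 2 lower (8 and 3 with no scaling factors), with BRAF at 2.26 ± 0.07 and the scaffold gene SHOC2 at 0.99 ± 0.05. At 4 h the same list had 8 higher and 0 lower, which became 4 and 5 with no scaling factors. These are transcripts, and the amounts of the kinase proteins were not measured here.

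**Figure D5:**
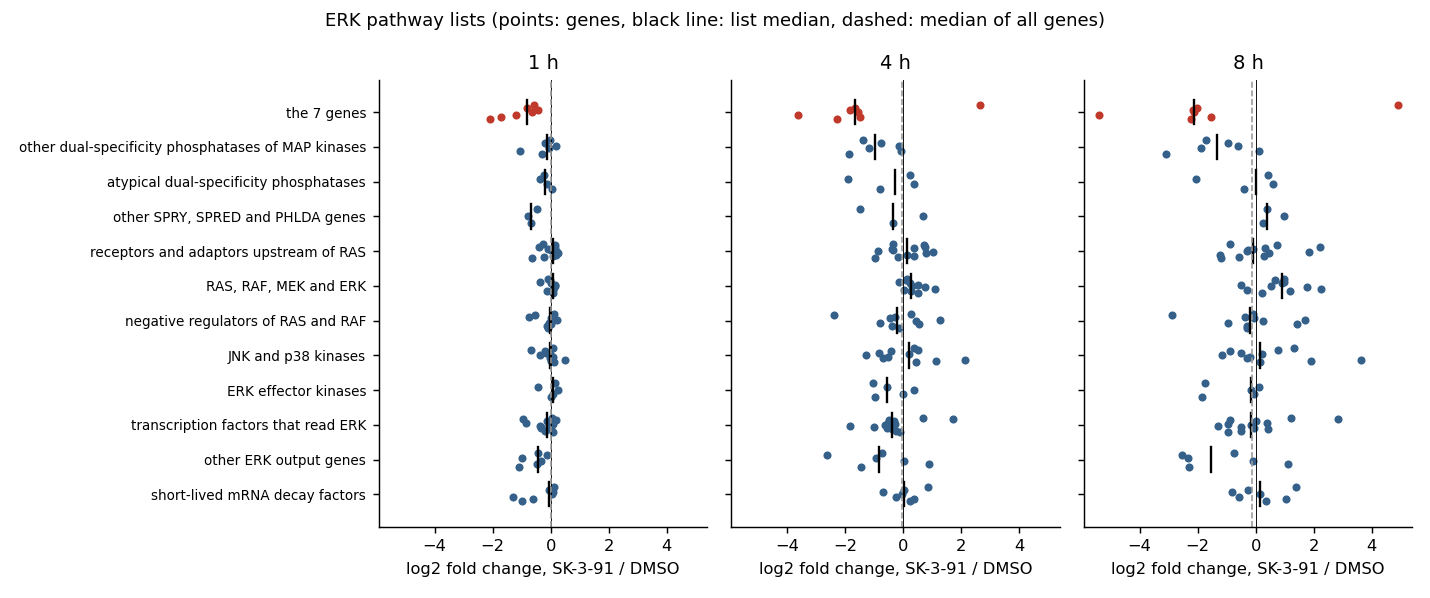
Log2 fold change of SK-3-91 over DMSO (horizontal axis) for the measured genes of each ERK pathway list at 1, 4 and 8 h; points are genes, black lines list medians, and the dashed line the median of all genes. The 7 genes (red) have medians of -0.81, -1.66 and -2.11, and the lists with the nearest medians are the other SPRY, SPRED and PHLDA genes at 1 h (-0.69), the other MAP kinase phosphatases at 4 h (-0.96) and the other ERK output genes at 8 h (-1.52).

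Of 10 measured negative regulators of RAS and RAF, 5 were lower and 3 higher at 8 h (8 and 2 with no scaling factors). The adaptor gene DOK1 fell by 2.87 ± 0.12 at 8 h, and RASA3 stood at -0.97 ± 0.06. PEBP1, which encodes an inhibitor of RAF, rose by 1.71 ± 0.04 and RASA2, a RAS GTPase-activating gene, by 1.44 ± 0.06. Upstream of RAS, the adaptor genes GAB2 and GRB2 rose by 2.23 ± 0.09 and 1.83 ± 0.03 at 8 h, and LCK, the T-cell receptor kinase, and IGF1R fell (-1.24 ± 0.04 and -1.18 ± 0.07). Of 6 other measured output genes of ERK, 5 were lower at 1 h and 4 were lower and 1 higher at both 4 and 8 h, with medians of -0.45, -0.83 and -1.52. EGR1, an immediate-early transcription factor, was below DMSO at 1, 4 and 8 h (-1.10 ± 0.13, -1.45 ± 0.12 and -2.31 ± 0.12). MYC was also below DMSO at these times (-0.99 ± 0.04, -0.95 ± 0.04 and -2.33 ± 0.05). The mean level of EGR1 in DMSO was 6.715, 13.57 and 26.24 CPM at 1, 4 and 8 h. In the treated groups it was 3.136, 4.978 and 5.326 CPM, so the wider difference came with a rise in DMSO. For MYC the treated means were 362.8, 386.4 and 128.3 CPM, against 718.6, 747.4 and 644.8 CPM in DMSO. KCNN4, a potassium channel gene, fell by 2.61 ± 0.15 at 4 h. IER2, whose exons overlap another gene on the opposite strand over more than 20% of their length, fell by 0.47 ± 0.06 at 1 h and was higher by 1.12 ± 0.05 at 8 h.

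Of 13 measured transcription factors that read ERK, 7 were lower and 4 higher at 8 h (9 and 2 with no scaling factors). ETV3, an ETS repressor, fell by 0.95 ± 0.11 at 1 h and rose by 1.72 ± 0.09 and 2.84 ± 0.08 at 4 and 8 h, and CREB1 fell at all 3 times (-0.35 ± 0.04, -1.83 ± 0.05 and -1.29 ± 0.05). Of 7 measured factors that set the decay of short-lived messages, 3 were lower and 2 higher at 1 h (3 and 0 with no scaling factors). Their median was -0.04. The 3 that fell were ZFP36, ZFP36L1 and ZFP36L2 (-0.98 ± 0.07, -0.62 ± 0.06 and -1.31 ± 0.04). KHSRP, from the same list, was higher at 4 and 8 h (0.85 ± 0.04 and 1.40 ± 0.04). At 8 h ZFP36L2 was still lower (-0.56 ± 0.04), ZFP36L1 had risen by 1.04 ± 0.06, and ZFP36 was called higher at 0.37 ± 0.06 but stood at -0.06 (adjusted p = 0.36) with no scaling factors. Among the stress kinases, MAPK13, a p38 gene, rose by 3.64 ± 0.20 and MAPK11, another, by 1.90 ± 0.14 at 8 h. MAP2K4, which activates JNK and p38, fell by 1.16 ± 0.08 at 8 h. MAPK13 averaged under 2 CPM in every DMSO group and met the minimum of 2 CPM for naming only through the treated groups. A rise was therefore a condition of MAPK13 being named. Of the 5 measured kinases that act below ERK, 3 were lower and 0 higher at 8 h (5 and 0 with no scaling factors). RPS6KA1 stood at -1.84 ± 0.10 and MKNK2 at -1.75 ± 0.05.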

How the data were processed

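RNA of 24 MOLT4 libraries was sequenced as single-end reads of 50 bases on the BGISEQ-500, per the labels' protocols. The authors deposited a table of raw read counts per gene and library with a gene width (another unit, in bases), and a table named for RPKM. The deposited values of the second table are on a log2 scale: 2 to the power of each was a straight line in the library's count, with a largest relative gap of 3.9e-07% and an offset of 1.1 to 1.16 that compresses low genes, and no gene length entered. The build was hg19 and edgeR was among the tools, per the submitters' processing notes; for the aligner, counter, annotation and strand setting the entry is: not given in the sources used here. Promoters came from GRCh38.p14 and exon overlap from GENCODE 29, so no coordinate of the files was used.

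Counts were tested in edgeR 4.0.16 (R 4.3.3) with TMM factors, filterByExpr (0 genes removed), 6 group means over 24 libraries, the quasi-likelihood F test, and adjustment by Benjamini-Hochberg over 9822 genes at 0.05; glmTreat tested against a fold of 1.5. The common biological coefficient of variation was 0.0422, and a standard error is the log2 fold change over the root of its F statistic. Counts were simulated for the comparisons at 1, 4 and 8 h over 9822 genes. In each, 68 genes were changed by 0.5 (log2), 66 by 1 and 66 by 2. Of those changed by 0.5, 97.06%, 89.71% and 86.76% were recovered, with 7, 6 and 5 false calls. Far more genes were called in the data than were changed in the simulation, so this recovery need not hold for the data. Alternatives used DESeq2 1.42.0, limma 3.58.1, other scalings and filters, a replicate block and each library left out. Because the second table is already log2, limma ran on its values as they stand and the planned fits with a pseudocount were not run.

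The 7 genes and the lists were chosen with earlier results of these data known. By rule, all 7 were named at every time, with the 3 most alike genes of each (mean of at least 5 CPM) and, from each list, up to 4 called genes with the largest change and a mean of at least 2 CPM; list members given in the text are a subset of these, and some are not reported here. Replicate pairs differed by more than sampling noise (chi-square per degree of freedom 1.63 to 7.82). Nothing in the labels says that replicates came from separate cultures, so p-values measure the spread between these libraries, which may be technical. Same-numbered libraries did not deviate together.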

Additional observations from a re-analysis of the deposited data

Results flagged for a closer look

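DUSP6 after 8 h of SK-3-91 had 1 library apart from the others: replicate 1 at 5.34 CPM, against 2.95 to 3.33 CPM in the other 3, a gap that took up 0.84 of the range of the group. Of 42 gene and group combinations examined this way it alone stood out, and chance marks about 1 in 20.

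The response to SK-3-91 differed between times for 5 of the 7 genes by the test of the difference itself (edgeR), a share near that of all genes, of which 39.9% went down and 40.6% up from 1 to 4 h, 33.0% and 35.6% from 4 to 8 h, and 44.0% and 41.4% from 1 to 8 h. From 1 to 4 h the log2 fold change moved by -2.43 for DUSP5, -0.92 for DUSP6, -1.38 for DUSP7, -0.85 for SPRY1 and 3.20 for PHLDA1. From 4 to 8 h it moved by -1.78 for DUSP5, -0.55 for DUSP6, -0.33 for DUSP7, -0.36 for SPRY1 and 2.25 for PHLDA1, and from 1 to 8 h by -4.22, -1.47, -1.71, -1.21 and 5.45 in the same order. The DUSP5 values that involve 8 h rest on 3 reads in the SK-3-91 group.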

How the results depend on the processing

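Over the 21 log2 fold changes of SK-3-91 against DMSO (7 genes at 3 times), all 356 alternatives kept the direction and the call of the plain test. In the fit of the 1 h libraries alone PHLDA1 gave no value, since the filter on low counts removed it. A replicate block changed none of 78 values and counts in direction or call; with it DUSP6 at 8 h fell by 2.10, and 0 same-numbered pairs of libraries correlated above 0.1. Values near 0 changed sign. With upper-quartile scaling DUSP1 moved by -0.06 from 4 to 8 h and DUSP2 by -0.01 from 1 to 8 h. With no scaling factors DUSP2 moved by -0.07 from 1 to 4 h and -0.24 from 1 to 8 h, and DUSP1 by -0.09 from 4 to 8 h. With limma on the deposited values these were -0.10, -0.16 and -0.02, and limma called DUSP1 from 1 to 4 h (-0.15, adjusted p = 0.017) and from 1 to 8 h (-0.18, adjusted p = 0.0058). With counts plus 2 the DUSP2 to DUSP6 ratio at 4 h differed by -0.01. The cause was not tested.

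Leaving out 1 library, the genes called higher from 1 to 4 h numbered 1 to 2, with DUSP2 added at 0.35 (adjusted p = 0.029) without SK-3-91 4 h replicate 3. Those called lower from 4 to 8 h numbered 2 to 4, the low counts coming without that library or SK-3-91 8 h replicate 1. Genes called lower at 1 h against the minimum fold of 1.5 numbered 3 to 4. Ranges that crossed 0 were -0.20 to 0.28 for DUSP1 and -0.19 to 0.12 for DUSP2 from 4 to 8 h, -0.40 to 0.08 for DUSP1 from 1 to 8 h, and -0.26 to 0.21 for PHLDA1 in DMSO from 4 to 8 h. For ratios to DUSP6 they were -0.32 to 0.10 for DUSP1, -0.12 to 0.20 for DUSP7 and -0.05 to 0.45 for SPRY1 at 8 h, -0.10 to 0.16 for DUSP2 at 4 h and -0.20 to 0.28 for PHLDA1 at 1 h. List counts under 3 other scalings, added after seeing the data, stayed within 1.5 times the TMM count in 61 of 66 cases with RLE, 64 with upper-quartile and 50 with no scaling factors. Depth limits DUSP5 after 4 and 8 h of SK-3-91 and PHLDA1 in DMSO.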
